A study of Mus musculus with 12 samples.

Results

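The monocyte identity genes Csf1r, Cx3cr1, Ccr2, Irf8, Ly6c2, Fn1 and F13a1 were followed in bone marrow RNA of leukaemic mice on 4 treatments. These 7 genes were picked by gene symbol from a count table of 56350 genes, with earlier results of these data known. All 7 were found, with 1 identifier each, and all 7 had enough counts to be tested. The 12 mice were C57Bl/6J, 12 to 14 weeks old, of both sexes, and of the genotype Shp2E76K/+;LysM-Cre+. Every mouse thus carried the activating allele of Ptpn11, the gene of the phosphatase Shp2, switched on by LysM-Cre, so that only cells in which the Lyz2 locus has been active, mostly granulocytes, monocytes and macrophages, carry the active form. They model juvenile myelomonocytic leukaemia, a childhood disease in which monocytes accumulate. Each group held 3 mice. The combination group received 20 oral doses of PD-901 and 5 intraperitoneal doses of 5-azacitidine, each at 5 mg/kg, over 4 weeks. The 5-azacitidine group and the PD-901 group received the same doses of the single agent, and the vehicle group neither. PD-901 (PD0325901) inhibits MEK, the kinase that activates ERK, and 5-azacitidine is a cytidine analogue that lowers DNA methylation. The question was what each drug, and both together, did to the marrow of these mice, and no group without the Shp2 allele was analysed here.

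Monocytes arise in the marrow from progenitors whose commitment depends on the transcription factors PU.1 and IRF8, and they need signals through the receptor CSF1R to survive and mature. Classical mouse monocytes carry Ly6C and CCR2 and leave the marrow towards CCL2, whereas non-classical ones carry little of either and more CX3CR1. Monocytes also make fibronectin (Fn1) and the A subunit of coagulation factor XIII (F13a1). The genes are not exclusive to monocytes. Csf1r is also read in macrophages, Irf8 in dendritic and B cells, Cx3cr1 in some natural killer cells, Fn1 in stroma and F13a1 in platelet precursors. In whole marrow, fewer monocytes and less RNA per monocyte cannot be told apart.

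Promoters, the stretches where transcription starts, are shown for Irf8 and Cx3cr1, which were lower with the combination than with vehicle, and for Ly6c2 and F13a1, which did not pass that test. They are RefSeq windows of GRCm38.p6, from 250 bases before the start site to 50 after it, and windows for 5 of the 7 genes were used. The motifs searched on both strands were PU.1 (GAGGAAG), the composite element of ETS and IRF factors (GGAA and GAAA with 2 bases between), the interferon response element (GAAA and GAAA with 2 bases between), RUNX (TGTGGT), C/EBP (TTGCNNAA) and the gamma-activated site (TTCNNNGAA). The GGAA core lies in both the PU.1 and the composite letters, so 1 stretch could match both. Capitals mark the matches, and each sequence is written 5′ to 3′ on the strand of its gene. Irf8 lies at chr8:120736108-120736407 (+), Cx3cr1 at chr9:120068247-120068546 (-), Ly6c2 at chr15:75111922-75112221 (-) and F13a1 at chr13:37050195-37050494 (-).
Irf8: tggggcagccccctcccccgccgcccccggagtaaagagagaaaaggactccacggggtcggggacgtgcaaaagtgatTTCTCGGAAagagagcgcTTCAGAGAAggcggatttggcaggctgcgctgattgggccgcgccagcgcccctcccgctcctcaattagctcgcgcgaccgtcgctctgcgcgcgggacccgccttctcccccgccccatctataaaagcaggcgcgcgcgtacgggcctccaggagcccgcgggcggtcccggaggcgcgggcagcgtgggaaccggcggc
Cx3cr1: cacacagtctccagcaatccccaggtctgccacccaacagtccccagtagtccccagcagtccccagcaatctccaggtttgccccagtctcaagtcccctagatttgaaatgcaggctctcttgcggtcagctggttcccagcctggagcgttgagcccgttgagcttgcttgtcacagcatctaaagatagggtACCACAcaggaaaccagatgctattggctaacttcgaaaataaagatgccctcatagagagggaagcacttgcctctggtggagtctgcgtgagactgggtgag
Ly6c2: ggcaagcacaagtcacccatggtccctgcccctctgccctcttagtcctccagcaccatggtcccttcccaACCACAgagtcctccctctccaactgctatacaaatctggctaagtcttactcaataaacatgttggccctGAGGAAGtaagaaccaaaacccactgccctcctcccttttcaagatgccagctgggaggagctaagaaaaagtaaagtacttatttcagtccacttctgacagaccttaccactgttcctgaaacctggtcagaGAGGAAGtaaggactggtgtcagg
F13a1: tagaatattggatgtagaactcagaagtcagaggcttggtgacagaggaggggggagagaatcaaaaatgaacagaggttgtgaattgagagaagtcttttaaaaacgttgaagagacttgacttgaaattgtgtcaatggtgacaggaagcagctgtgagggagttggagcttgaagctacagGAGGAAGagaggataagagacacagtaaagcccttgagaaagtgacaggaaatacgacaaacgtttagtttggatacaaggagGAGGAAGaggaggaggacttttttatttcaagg

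The Irf8 window held 2 matches to the gamma-activated site at positions -171 and -153 (the start site is position 0). The windows of Ly6c2 and F13a1 held 2 PU.1 matches each, at -108 and 26 in Ly6c2 and at -66 and 17 in F13a1. RUNX matches, read as ACCACA on the opposite strand, stood at -54 in Cx3cr1 and at -179 in Ly6c2. None of the 6 motifs matched in the Ccr2 window, which is not printed. PU.1 letters occurred in 13.6% of all 32851 promoter windows of the same length, RUNX letters in 16.8% and gamma-activated sites in 8.3%. The composite, the interferon response element and C/EBP matched in 0 of the 5 windows, against 2.72%, 3.44% and 10.8% of all windows. The Cx3cr1 and Ccr2 start sites used here lie 1583 and 233 bases inside the 5′ end of the gene in the annotation.

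The libraries held 15356919 to 27148190 counts, with a median of 19657932.5. Levels are given as CPM, counts scaled to library size with edgeR's TMM factors, which ran from 0.929 to 1.07. Ptpn11 itself averaged 130.4 to 147 CPM in the 4 groups. Lyz2, the locus of the Cre, stood at 44.9, 55.9 and 1151 CPM in the combination libraries, 699.6 to 4182 CPM in the single-agent libraries, and 172, 147 and 3228 CPM in the vehicle libraries. Xist, transcribed from the inactive X chromosome in female cells, exceeded 100 CPM in 0 of 3 combination, 1 of 3 5-azacitidine, 2 of 3 PD-901 and 3 of 3 vehicle libraries. The labels call the experiments matched for sex, whereas Xist went with the groups, so what it marks and the treatment cannot be fully told apart. As a check of the tissue, mature neutrophil genes summed to 25543 to 65500 CPM, and all 20 classical monocyte markers of the list used below were detected.

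Levels of different genes were compared as TPM, which divides by gene length. In vehicle marrow Ly6c2 was the highest, at 1131 ± 97.0 TPM (mean ± SD, n = 3). Fn1 at 247 ± 23.8, Ccr2 at 225 ± 69.2 and F13a1 at 219 ± 37.0 TPM came after it, then Csf1r at 176 ± 48.0 and Irf8 at 169.6 ± 36.3 TPM. In this order from Fn1 to Irf8, the ranges of neighbours overlapped. Within each vehicle library F13a1 was above Csf1r (183, 217 and 257 against 139, 158 and 230 TPM). The other neighbours did not keep their order in every vehicle library. Cx3cr1 was the lowest, at 51.7 ± 27.5 TPM. In combination marrow Ly6c2 stood at 999 ± 231 TPM and Cx3cr1 at 14.8 ± 3.93 TPM, and these were again the highest and the lowest of the 7. The 7 genes together took 0.263 ± 0.0764% of all counts in combination marrow, 0.245 ± 0.0368% in 5-azacitidine marrow, 0.272 ± 0.0314% in PD-901 marrow and 0.399 ± 0.0592% in vehicle marrow. The 3 treated means thus lay close together and below vehicle.

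**Figure D1:**
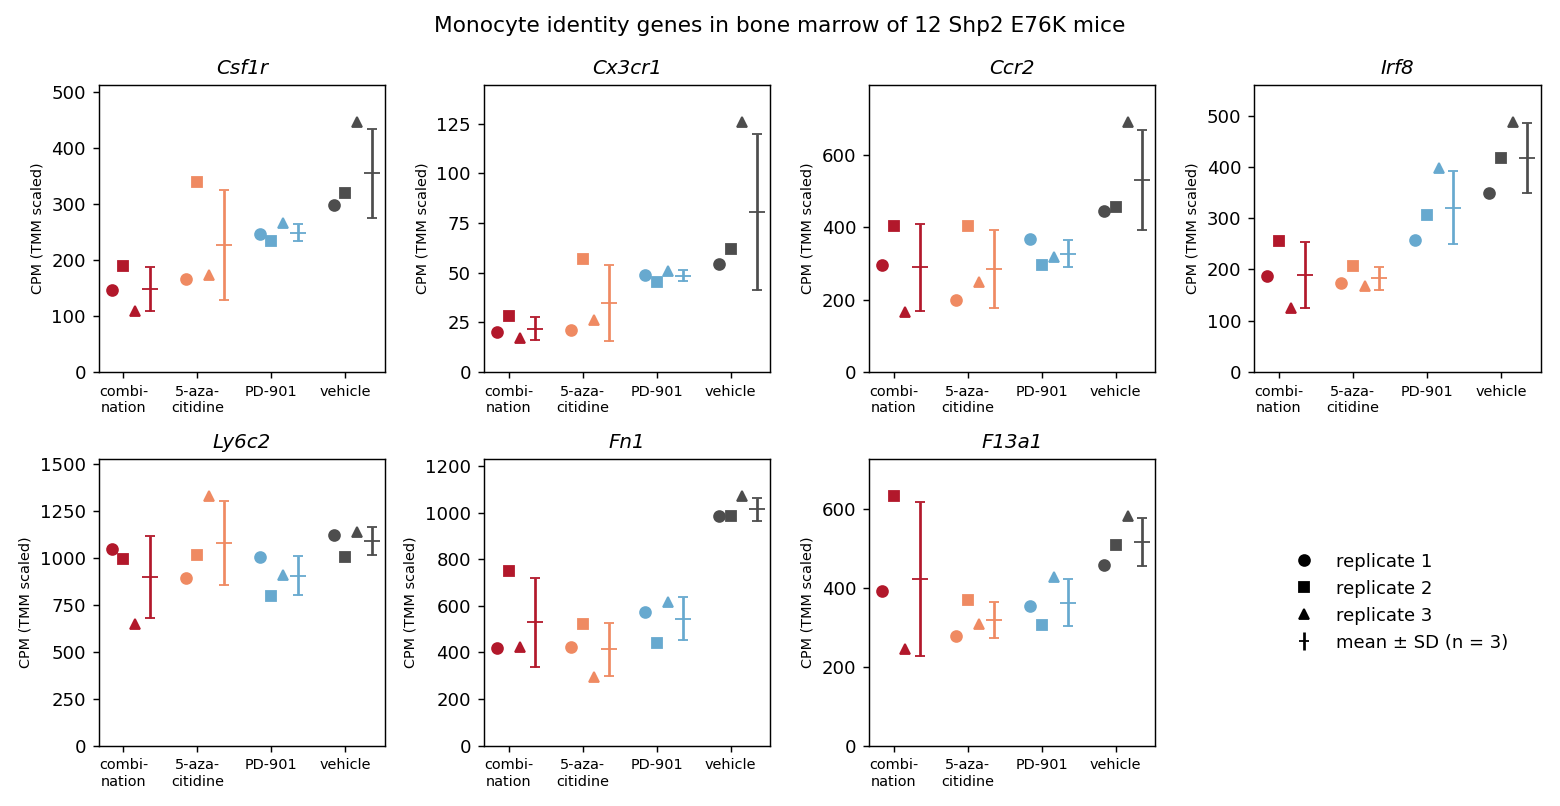
Level of each of the 7 genes in the 12 libraries, in TMM-scaled CPM on linear axes from 0, with the mean and SD of each group of 3 mice beside its points. All 3 combination libraries lie below all 3 vehicle libraries for Csf1r, Cx3cr1, Ccr2, Irf8 and Fn1, while the groups overlap for Ly6c2 and F13a1.

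In combination marrow the receptors Csf1r and Cx3cr1, the transcription factor Irf8 and the matrix gene Fn1 were lower than in vehicle marrow, by 1.92-fold to 3.70-fold. Of all genes tested, 7.97% were called lower in that comparison. The test did not call Ccr2, Ly6c2 and F13a1, of which Ccr2 stood below vehicle in every treated mouse. With either drug alone all 7 changes were negative and none passed the threshold, where 0% of all genes were called lower. With a term for Xist above 100 CPM in the model, 0% of all genes were called in combination against vehicle marrow.

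Csf1r encodes the receptor for CSF1 and IL-34 (ENSMUSG00000024621.16, mm10 chromosome 18, 61100598 to 61132149). Its level was 147, 189 and 109 CPM in the combination libraries, 165, 339 and 173 CPM with 5-azacitidine, 247, 235 and 266 CPM with PD-901, and 299, 319 and 446 CPM with vehicle. Every combination library was below every PD-901 library, and every PD-901 library below every vehicle library. 5-azacitidine replicate 2 stood apart from its group, at a level inside the vehicle range, and was the only mouse of its group with Xist above 100 CPM. Csf1r fell in combination against vehicle marrow by a log2 change of -1.26 ± 0.26 (SE), which is 2.39-fold lower (edgeR adjusted p = 0.00841). The change was -0.65 with 5-azacitidine alone (95% interval -1.21 to -0.09, adjusted p = 0.259) and -0.51 with PD-901 alone (-1.07 to 0.05, adjusted p = 0.96). Its exons share 873 bases with Hmgxb3 on the opposite strand, and the sources used here do not give whether reads were counted by strand. Hmgxb3 had at most 1033 counts in any library, against 2507 to 10572 for Csf1r. Cx3cr1, Fn1 and F13a1 share exon bases with opposite-strand RNAs that had at most 44 counts.

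Cx3cr1 encodes the fractalkine receptor, which keeps non-classical monocytes alive (ENSMUSG00000052336.7, chromosome 9, 119901616 to 120069879). It measured 20.1, 28.2 and 17.1 CPM in the combination libraries, 21.0, 56.8 and 26.3 CPM with 5-azacitidine, 49.0, 45.4 and 51.0 CPM with PD-901, and 54.6, 61.7 and 126 CPM with vehicle. The combination libraries were all below the PD-901 and vehicle libraries, and 5-azacitidine replicate 2 was again the treated mouse within the vehicle range. Cx3cr1 had the largest change of the 7 in combination against vehicle marrow, where it fell by a log2 change of -1.89 ± 0.37, or 3.70-fold (edgeR adjusted p = 0.00678). That call was lost without combination replicate 1 (-1.83, adjusted p = 0.0553). Without vehicle replicate 3, the highest library, the change was -1.42 (adjusted p = 0.0164). The change was -1.22 with 5-azacitidine alone (adjusted p = 0.161) and -0.74 with PD-901 alone (adjusted p = 0.96).

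Ccr2 encodes the receptor for CCL2 that lets classical monocytes leave the marrow (ENSMUSG00000049103.14, chromosome 9, 124101950 to 124113557). It measured 297, 405 and 165 CPM in the combination libraries, 198, 405 and 250.02 CPM with 5-azacitidine, 367, 296 and 318 CPM with PD-901, and 445, 456 and 689.5 CPM with vehicle. All 9 treated libraries were below all 3 vehicle libraries, and the 3 treated groups overlapped. The test did not call it in combination against vehicle marrow (log2 change -0.88 ± 0.31, 95% interval -1.54 to -0.22, edgeR adjusted p = 0.0742). Ccr2 was called without combination replicate 2 (-1.20, edgeR adjusted p = 0.0252) and without 5-azacitidine replicate 2 (adjusted p = 0.0461), and without vehicle replicate 3 the change was -0.64 (adjusted p = 0.232). DESeq2 and limma-voom called it in all 12 libraries (adjusted p = 0.012 and 0.0397). Single-agent changes were close to it in size, -0.90 with 5-azacitidine (adjusted p = 0.206) and -0.70 with PD-901 (adjusted p = 0.96).

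Irf8 encodes the transcription factor that directs progenitors to the monocyte and dendritic cell fates (ENSMUSG00000041515.10, chromosome 8, 120736358 to 120756694). Its level was 188, 255 and 126 CPM in the combination libraries, 173, 208 and 168 CPM with 5-azacitidine, 258, 306 and 398 CPM with PD-901, and 349.5, 417 and 487 CPM with vehicle. The combination and 5-azacitidine libraries overlapped each other and lay below all PD-901 and vehicle libraries, whereas PD-901 and vehicle overlapped. Irf8 fell in combination against vehicle marrow by a log2 change of -1.14 ± 0.23, or 2.204-fold (edgeR adjusted p = 0.00605), the lowest adjusted p of the 7. With 5-azacitidine alone the change was -1.19 ± 0.23, of about the same size, but it missed the threshold (unadjusted p = 9.16e-05, adjusted p = 0.0925). With PD-901 alone it was -0.38 (95% interval -0.86 to 0.09, adjusted p = 0.96). The direct difference between 5-azacitidine and PD-901 marrow was -0.81 ± 0.22 (unadjusted p = 0.0025, adjusted p = 0.543).

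The remaining genes encode surface and secreted products. Ly6c2 encodes the Ly6C surface protein by which classical monocytes are sorted (ENSMUSG00000022584.14, chromosome 15, 75108158 to 75111970). It stood at 1048, 995 and 649 CPM in the combination libraries, 895, 1014 and 1328 CPM with 5-azacitidine, 1004, 799 and 910.4 CPM with PD-901, and 1121, 1005 and 1138 CPM with vehicle. Its levels were the most even of the 7, with overlap between combination and vehicle and a range of 2.04-fold over all 12 libraries, against 7.34-fold for Cx3cr1. The change in combination against vehicle marrow was -0.28 ± 0.19 (95% interval -0.68 to 0.12, edgeR adjusted p = 0.377). It was -0.01 with 5-azacitidine alone (interval -0.41 to 0.38) and -0.27 with PD-901 alone (interval -0.66 to 0.13). Its near-identical neighbour Ly6c1 had 0 to 38 counts per library, and how reads that match both copies were counted is not known, so the level of Ly6c2 is uncertain to that extent.

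Fn1 encodes fibronectin, an extracellular matrix protein (ENSMUSG00000026193.15, chromosome 1, 71585520 to 71653200). It measured 417, 748 and 422 CPM in the combination libraries, 423, 521 and 295 CPM with 5-azacitidine, 573, 442 and 618 CPM with PD-901, and 984, 985 and 1070.4 CPM with vehicle. The vehicle libraries lay together and above all 9 treated libraries, which overlapped. Fn1 fell in combination against vehicle marrow by a log2 change of -0.94 ± 0.23, or 1.92-fold (edgeR adjusted p = 0.0169). That call was lost without combination replicate 1 (-0.79, adjusted p = 0.0913) and without combination replicate 3 (-0.80, adjusted p = 0.0785). The change was -1.29 ± 0.24 with 5-azacitidine alone (unadjusted p = 6.26e-05, adjusted p = 0.0914) and -0.90 ± 0.23 with PD-901 alone (unadjusted p = 0.00163, adjusted p = 0.96).

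F13a1 encodes the catalytic subunit of factor XIII, which crosslinks fibrin (ENSMUSG00000039109.16, chromosome 13, 36867178 to 37050244). It measured 392, 633 and 245 CPM in the combination libraries, 279, 369 and 309 CPM with 5-azacitidine, 355, 307 and 427 CPM with PD-901, and 459, 509 and 581 CPM with vehicle. The single-agent libraries all lay below vehicle, whereas the combination libraries spread widely, with replicate 2 above and replicates 1 and 3 below every vehicle library. The change in combination against vehicle marrow was -0.29 ± 0.26 (95% interval -0.83 to 0.26, edgeR adjusted p = 0.535). Without combination replicate 2 it was -0.70 and called (adjusted p = 0.0303), and without combination replicate 3 it was -0.01. It was -0.70 with 5-azacitidine alone (adjusted p = 0.227) and -0.51 with PD-901 alone (adjusted p = 0.96).

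Counted over the 7 genes, 4 were lower in combination than in vehicle marrow, Csf1r, Cx3cr1, Irf8 and Fn1, and 0 were higher. Among all 17475 genes tested, 7.97% were called lower and 5.78% higher in that comparison. The count was 2 without combination replicate 1, where 2.75% of all genes were called lower, 3 without combination replicate 3 (3.59%) and 6 without combination replicate 2 (8.67%). All 7 log2 changes were negative, against 49.3% of all genes, and the median was -0.94, against 0.01 over all genes. Because the 7 genes were chosen with earlier results of these data known, these shares are a description and no independent test. The libraries of the 2 groups did not overlap for 5 of the 7 genes, with combination the lower, against 15.9% of all genes. A joint test for any difference among the 4 groups called the same 4 genes (adjusted p = 0.0427 for Csf1r, 0.0284 for Cx3cr1, 0.0125 for Irf8 and 0.0154 for Fn1), against 6.96% of all genes. That test was sensitive to single mice: it called 0 of the 7 without combination replicate 1 (0.0212% of all genes), 2 without vehicle replicate 3, any 1 PD-901 mouse, 5-azacitidine replicate 3 or combination replicate 3 (1.01% to 6.5%), and 5 without combination replicate 2 (8.84%). The vehicle mean was the highest of the 4 group means for all 7 genes, against 27.3% of all genes.

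Xist went with that comparison, as given above. Lyz2 overlapped between the 2 groups, with a log2 change of -1.50 ± 1.56 (edgeR adjusted p = 0.62). With a term for Xist above 100 CPM, 0 of the 7 genes and 0 of all 17475 genes were called in combination against vehicle marrow, and the median change of the 7 was -0.73. In that fit the Xist term itself was called for 0 genes as well. The change then was -0.75 for Csf1r (adjusted p = 0.273), -1.28 for Cx3cr1 (0.189), -0.77 for Irf8 (0.227) and -0.73 for Fn1 (0.307). No combination library had Xist above 100 CPM and no vehicle library had it below, so the comparison cannot be made within either kind of library. Leaving out the 4 libraries lowest in Lyz2 sets combination replicate 3, the lowest of its group for 6 of the 7 genes, against vehicle replicate 3, the highest of its group for all 7. Neither group then has a spread of its own, so only the changes are given, -0.81 for Ly6c2, -2.88 for Cx3cr1 and a median of -1.95.

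With 5-azacitidine alone, edgeR called 0 of the 7 genes, against 0% of all genes called lower, while limma-voom called 0 and DESeq2 called Cx3cr1, Ccr2, Irf8 and Fn1, with 1.84% of all genes called lower by DESeq2. All 7 changes were negative (50.8% of all genes), with a median of -0.90 against -0.01 over all genes. Unadjusted p was under 0.05 for 6 of the 7, each lower, as it was for 7.22% of all genes in that direction. The libraries did not overlap for Ccr2, Irf8, Fn1 and F13a1, against 9.77% of all genes. Among these mice 5-azacitidine replicate 2 was the highest of its group for 6 of the 7 genes. Without it 4 of the 7 genes were called lower than vehicle, Csf1r, Cx3cr1, Irf8 and Fn1, against 0.391% of all genes. Replicate 2 was also the only mouse of its group with Xist above 100 CPM, whereas all 3 vehicle mice had it. When it is left out, what Xist marks and the treatment cannot be told apart in this comparison. Without combination replicate 2 or 3, which enter only through the shared filter, scaling and spread, Irf8 and Fn1 were called, against 0.158% and 0.0763% of all genes.

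With PD-901 alone, edgeR, DESeq2 and limma-voom each called 0 of the 7 genes, and edgeR called 0% of all genes lower. Unadjusted p was under 0.05 for Fn1 and Ccr2, each lower, as for 2.17% of all genes in that direction. All 7 changes were negative (48.4% of all genes), and the median was -0.51 against 0.01. All but Irf8 had PD-901 libraries entirely below the vehicle libraries, against 5.93% of all genes. These 3 comparisons share the same vehicle libraries, among which replicate 3 was the highest for all 7 genes.

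**Figure D2:**
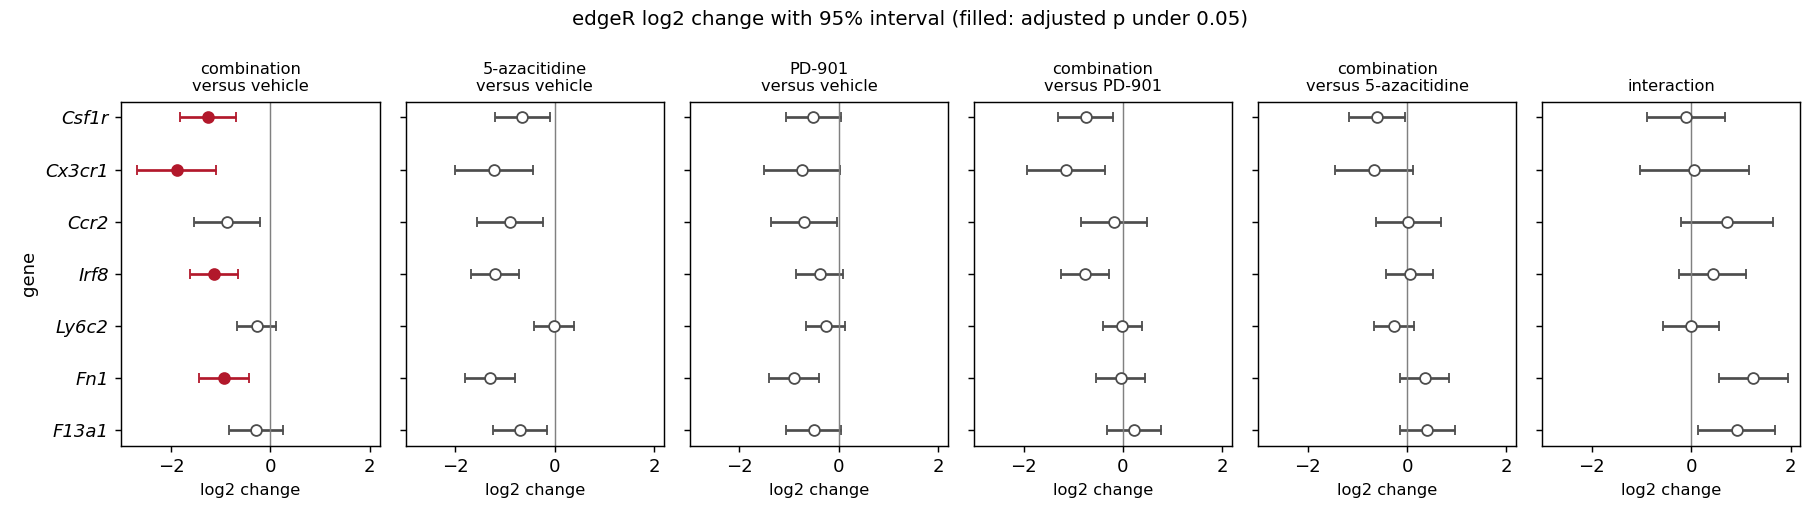
Log2 change of each gene with its 95% interval from edgeR, for 5 comparisons (the first group named over the second) and for the interaction of the 2 drugs. Filled points have an adjusted p under 0.05: Csf1r, Cx3cr1, Irf8 and Fn1 in combination versus vehicle, and no gene in the other panels.

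The combination was set against each single agent to see what the other drug added. Against PD-901, edgeR called 0 of the 7 genes, and 5.12% of all genes were called lower. DESeq2 called Csf1r, Cx3cr1 and Irf8, with 8.31% of all genes called lower, and limma-voom Cx3cr1 and Irf8, with 5.65%. Irf8 came closest, with a log2 change of -0.76 ± 0.22 (edgeR adjusted p = 0.0554), followed by Cx3cr1 at -1.15 ± 0.36 (0.0768) and Csf1r at -0.75 ± 0.26 (0.104). Each of these 3 had an unadjusted p under 0.05, as 12.4% of all genes did in that direction. Without 5-azacitidine replicate 2 the test called Csf1r and Cx3cr1, with 4.7% of all genes called lower. It called Cx3cr1 without vehicle replicate 3 (5.26% of all genes) and Irf8 without combination replicate 2 (6% of all genes). For these 3 the combination libraries lay entirely below the PD-901 libraries, as they did for 15% of all genes. Ccr2, Ly6c2 and Fn1 had log2 changes of -0.18, -0.01 and -0.04, and F13a1 of 0.22, all with intervals that include 0. Against 5-azacitidine, edgeR, DESeq2 and limma-voom each called 0 of the 7 genes, and edgeR called 1.07% of all genes lower. Unadjusted p was under 0.05 for Csf1r alone, as for 9.05% of all genes in that direction. Csf1r and Cx3cr1 had the lowest values, -0.61 (95% interval -1.17 to -0.05, adjusted p = 0.270) and -0.67 (-1.45 to 0.11, adjusted p = 0.411). Irf8 at 0.05 (interval -0.42 to 0.53), Ccr2 at 0.02, Fn1 at 0.36 and F13a1 at 0.41 were above 0. Between 5-azacitidine and PD-901 marrow the 3 tools again called 0 of the 7 genes, edgeR called 0% of all genes lower, and Irf8 alone had an unadjusted p under 0.05, as 4.24% of all genes did in that direction.

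The interaction measures how far the combination departs from the sum of both single-agent log2 changes, and a positive value means that it changed less than that sum. With edgeR 0 of the 7 genes passed, and 0% of all genes did, while DESeq2 called Fn1 and limma-voom none of the 7. Unadjusted p was under 0.05 for Fn1 and F13a1, as for 10.7% of all genes. The highest value was that of Fn1, 1.25 ± 0.33 (unadjusted p = 0.00174, edgeR adjusted p = 0.187), with log2 changes against vehicle of -0.94 in combination, -1.29 with 5-azacitidine and -0.90 with PD-901. F13a1 had 0.92 ± 0.36 (unadjusted p = 0.0234, adjusted p = 0.371) and Ccr2 0.72 ± 0.43 (adjusted p = 0.586). Csf1r at -0.10 (95% interval -0.89 to 0.69), Cx3cr1 at 0.07 (-1.03 to 1.16) and Ly6c2 at 0.00 (-0.56 to 0.56) had values near 0 with wide intervals. Irf8 had 0.44 (-0.24 to 1.11).

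The genes also differed from each other across single mice. Within the combination group replicate 2 was the highest for 6 of the 7 genes and replicate 3 the lowest for 6. Profiles were compared as root mean square differences of log2 CPM over the 12 libraries, each gene centred on its own mean, as a description. Csf1r and Ccr2 were the closest pair, at 0.264, and Cx3cr1 and Ly6c2 the farthest, at 0.749. Ratios to Ly6c2 within a library do not depend on library size. Per 100 Ly6c2 reads, Cx3cr1 had 2.46 ± 0.484 reads in combination and 7.35 ± 3.26 in vehicle marrow (SD, n = 3 each; two-sided exact permutation p = 0.1, the smallest that 3 against 3 allow). Csf1r had 16.6 ± 2.497 reads in combination and 32.5 ± 6.29 in vehicle marrow, and Irf8 21.0 ± 4.12 in combination and 38.5 ± 6.36 in vehicle marrow (exact p = 0.1 for both). F13a1 had 46.3 ± 15.01 reads in combination and 47.6 ± 5.71 in vehicle marrow (exact p = 0.8). A ratio shows unequal change of its 2 genes, and not which of them moved.

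**Figure D3:**
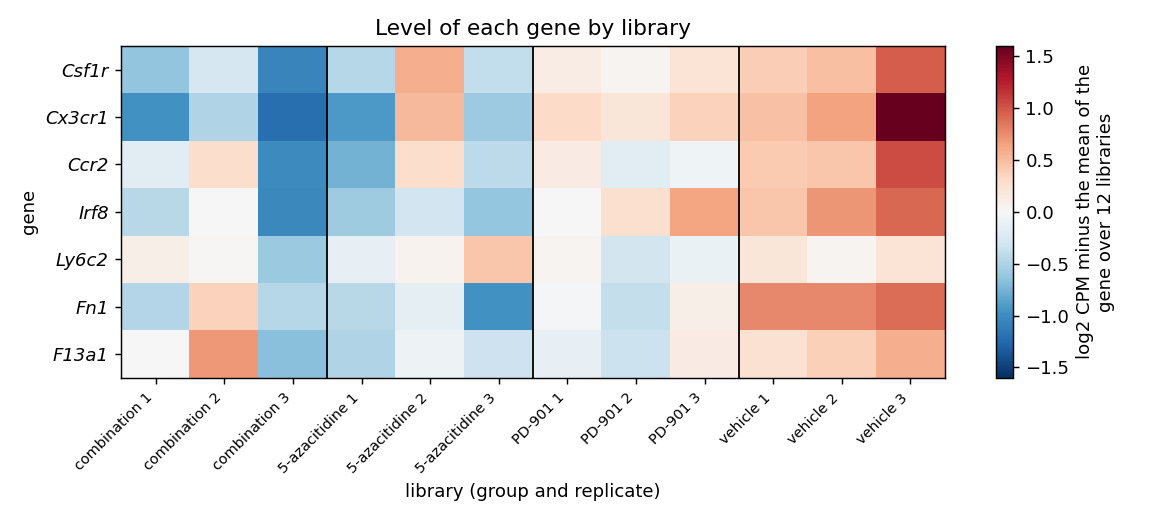
Log2 CPM of each gene in each library minus the mean of that gene over the 12 libraries, as a colour scale from blue (below the mean) to red (above it). Vehicle replicate 3 is above the mean for all 7 genes and combination replicate 3 below it for all 7, and the Ly6c2 row is the palest.

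Genes with the profile most like the mean of the 7 were ranked by the same root mean square difference among 9878 genes with a mean of at least 5 CPM. Mpeg1, which encodes the pore-forming protein perforin-2 of macrophages, was the nearest at 0.118, followed by Tifab at 0.137, Itgb7 at 0.139 and Irf5 at 0.146. Ppfia4, Slc43a2, March1 and Crybg1 came next, up to 0.159. Mpeg1 averaged 434 ± 142 CPM in combination, 546 ± 189.8 CPM in 5-azacitidine, 649 ± 59.3 CPM in PD-901 and 957 ± 179 CPM in vehicle marrow. Nearest to the single genes were Mpeg1 for Csf1r, Phf11b for Cx3cr1, Ly86 for Ccr2, Runx2 for Irf8, Idh1 for Ly6c2, Plcb1 for Fn1 and Ass1 for F13a1. The dendritic and progenitor receptor Flt3 was among the 3 nearest to Irf8.

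Other genes of the monocyte pathway were read from lists of ligands and partners, fate regulators and subset markers, in combination against vehicle marrow. These lists were compiled with earlier results of these data known, so their counts are descriptions, to be read beside the 7.97% of all genes called lower. That share changed when 1 mouse was left out, and counts without a mouse are to be read beside it. It was 3.86%, 4.99% and 6.82% without vehicle replicate 1, 2 or 3. Without combination replicate 1, 2 or 3 it was 2.75%, 8.67% and 3.59%. With either single agent against vehicle, 0 genes of any list were called. Among all 17475 genes, edgeR called 0 with PD-901 and 1 with 5-azacitidine. Of 10 tested ligands and partners, 3 fell and 0 rose, with a median log2 change of -0.52. The count was 1 without combination replicate 1 or 3, and the median was -0.22 without combination replicate 3 and -0.05 without vehicle replicate 3. Csf1, the ligand of Csf1r, stood at 16.8 ± 5.42 CPM in combination and 35.7 ± 6.87 CPM in vehicle marrow (-1.09 ± 0.26, edgeR adjusted p = 0.0128). Ccl2, the ligand of Ccr2, stood at 0.796 ± 0.590 CPM in combination and 4.34 ± 2.88 CPM in vehicle marrow (-2.47, adjusted p = 0.0166). Tyrobp, the adaptor DAP12 that works with CSF1R, fell by a log2 change of -0.97 (adjusted p = 0.00364). Il34, Cx3cl1, Ccl12 and F13b were too low to be tested.

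Of 17 tested fate regulators, 11 fell and 0 rose, with a median of -0.89. The count was 5 without combination replicate 1 and 7 without combination replicate 3. Among them were Spi1, which encodes PU.1 (298 ± 36.3 CPM in combination and 512 ± 77.4 CPM in vehicle marrow, -0.78 ± 0.16, edgeR adjusted p = 0.00744), and Nr4a1, which non-classical monocytes require (14.2 ± 1.46 CPM in combination and 68.8 ± 14.5 CPM in vehicle marrow, -2.28, adjusted p = 0.00363). Irf4, an interferon regulatory factor of dendritic and lymphoid cells, fell by a log2 change of -1.83 (edgeR adjusted p = 0.0033). Egr2 was at 0 in 11 of 12 libraries.

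Of 20 classical monocyte markers 11 fell and 0 rose, with a median of -1.03, and of 11 tested non-classical markers 8 fell and 0 rose, with a median of -0.95. Without combination replicate 1 the counts were 1 classical and 3 non-classical, and without combination replicate 3 they were 3 and 4. The classical count was also 6 without vehicle replicate 1 (3.86% of all genes lower) or 3 (6.82%), and 15 without combination replicate 2 (8.67%). Mpeg1 (-1.14), the lipopolysaccharide co-receptor Cd14 (-1.65) and Tgfbi (-1.11) were among the classical genes with the lowest p. Itgax (-2.18), the Fc receptor Fcgr4 (-1.90), Itgal (-0.91) and Ace (-2.45) were the non-classical ones. Treml4, a marker of non-classical monocytes, was at 0 in 10 of 12 libraries. Of 8 progenitor genes 2 fell, Flt3 (-1.20) and Gata2 (-1.25), and the median was 0.04, while Kit was at 108 ± 5.02 CPM in combination and 95.6 ± 12.6 CPM in vehicle marrow (0.18, adjusted p = 0.471). The progenitor count was 1 without vehicle replicate 3 or without combination replicate 1 or 2. With the Xist term 0 genes of each of these lists were called. The medians then were -0.05 for ligands and partners, -0.78 for fate regulators, -0.76 for classical, -1.01 for non-classical and 0.04 for progenitor genes.

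Markers of other cells that use some of the 7 genes moved as well, and their part in the results was not tested. Dendritic cell genes, of which 9 of 12 fell, summed to 130 to 196 CPM in combination and 329 to 496 CPM in vehicle libraries. B cell genes, of which 8 of 10 fell, summed to 99.5 to 222 CPM in combination and 394 to 412 CPM in vehicle libraries. Macrophage genes, of which 4 of 14 fell, summed to 484 to 719.6 CPM in combination and 799 to 1447 CPM in vehicle libraries. The sums of these 3 lists did not overlap between the groups, and no marker of them was at 0 in any library. Sums of the classical monocyte list did not overlap either, at 5869 to 6725 CPM in combination and 8323 to 10917 CPM in vehicle libraries. Nor did those of the non-classical list, at 1182 to 1323 CPM in combination and 1915 to 2242 CPM in vehicle libraries. Without combination replicate 1 the counts of fallen genes were 4 dendritic, 1 B cell and 0 macrophage. The B cell count was also 1 without vehicle replicate 1, 2 without combination replicate 3, 3 without vehicle replicate 3 and 4 without vehicle replicate 2, and the macrophage count 0 without vehicle replicate 3 and 1 without combination replicate 2.

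Stroma and vessel genes, of which 2 of 12 fell, summed to 136 to 183 CPM in combination and 175 to 227 CPM in vehicle libraries, with Pdgfra and Bglap at 0 in 1 library each. Platelet genes, of which 0 of 10 tested were called, summed to 178 to 279 CPM in combination and 194 to 328 CPM in vehicle libraries, with Treml1 at 0 in all 12 libraries and Gp1bb in 11. Natural killer and T cell genes, of which 2 of 12 fell, summed to 129.98 to 214 CPM in combination and 126 to 165 CPM in vehicle libraries. Mature neutrophil genes fell for 6 of 12, with sums of 25543 to 30140.1 CPM in combination and 31842 to 65464 CPM in vehicle libraries. Promyelocyte genes rose for 6 of 8, with sums of 6643 to 9973 CPM in combination and 5288 to 6043 CPM in vehicle libraries. Erythroid genes rose for 11 of 12, with sums of 2255 to 7013 CPM in combination and 1369 to 2321 CPM in vehicle libraries. For these 2 rising lists the share to read beside is that of all genes called higher, 1010 of 17475 (5.78%). Without vehicle replicate 1, 2 or 3 it was 278 of 18847, 574 of 18552 and 696 of 18315 genes. Without combination replicate 1, 2 or 3 it was 285 of 18866, 1088 of 18933 and 381 of 18353 genes. The promyelocyte count was 0 without vehicle replicate 1 or 2 or combination replicate 1, and 2 without combination replicate 2. The erythroid count was 2 without combination replicate 1, 3 without combination replicate 3, 4 without vehicle replicate 1 and 5 without vehicle replicate 3. The neutrophil count was 3 without vehicle replicate 1 or combination replicate 1, 4 without combination replicate 3 and 10 without vehicle replicate 3.

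With the Xist term 0 genes of any of these lists of other cells were called. The medians then, with those of the fit without the term in brackets, were -1.33 (-1.50) for dendritic, -1.09 (-1.4987) for B cell, -0.32 (-1.01) for macrophage, -0.51 (-0.60) for stromal, -0.51 (-0.26) for platelet, 0.40 (-0.20) for natural killer and T cell and -1.26 (-1.20) for mature neutrophil genes. They were 0.36 (0.67) for promyelocyte and 1.42 (1.4995) for erythroid genes.

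**Figure D4:**
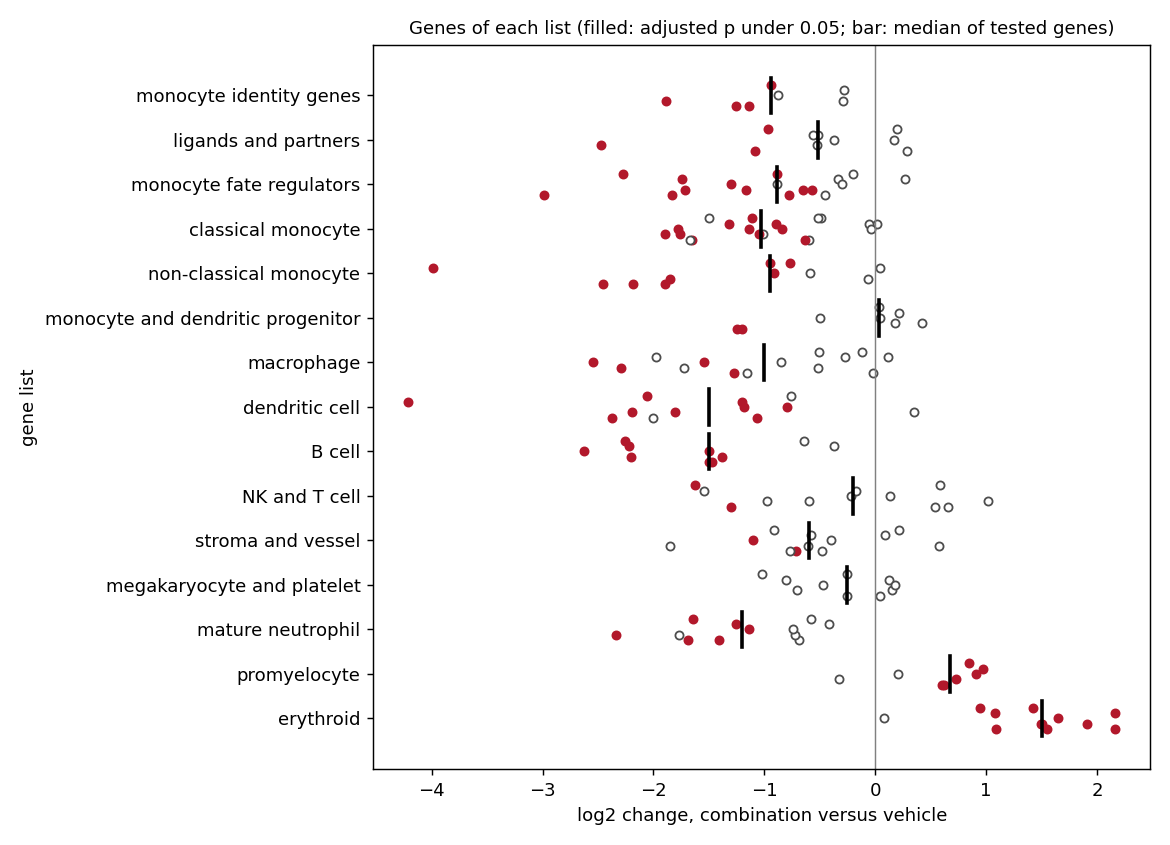
Log2 change of each tested gene in combination versus vehicle marrow, by gene list, with filled points at an edgeR adjusted p under 0.05 and a bar at the median of the list. Medians are -0.94 for the 7 monocyte identity genes, -0.89 for the fate regulators, -1.03 and -0.95 for classical and non-classical markers, 0.04 for progenitor genes, 0.67 for promyelocyte and 1.4995 for erythroid genes. They are -1.50 for dendritic, -1.50 for B cell, -1.20 for mature neutrophil and -1.01 for macrophage genes. Stromal genes have -0.60, ligands and partners -0.52, platelet genes -0.26, and natural killer and T cell genes -0.20.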

How the data were processed

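RNA of bone marrow cells, 1 library per mouse, was measured by paired-end sequencing. The values deposited by the authors are raw counts of reads for each gene, made with STAR 2.7.2a and featureCounts (Subread 1.6.5) on mm10, per the submitters' processing notes. Annotation release and strand setting were not stated there. The labels give the treatment of each mouse, and replicate numbers follow accession order and pair no mice. P-values set differences between groups against the spread between mice.

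In R 4.3.3, edgeR 4.0.16 kept 17475 genes (filterByExpr, minimum count 10, minimum total 15), scaled libraries by TMM and fitted a quasi-likelihood model with 1 mean per group to all 12 libraries. Tests were two-sided quasi-likelihood F tests, and adjusted p follows Benjamini and Hochberg over all tested genes, with a threshold of 0.05 for a call. The 95% intervals and standard errors come from the same fit, and the common biological coefficient of variation was 0.328. The counts of mice in 1 group differed beyond sampling noise (chi-square over its degrees of freedom was at least 19.9), so none was taken for a copy. TPM was computed from the counts and the exon length in the table, and log2 CPM for profiles used a prior count of 2.

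The 7 genes and the gene lists were chosen with earlier results of these data known. Named are the 7 genes, Ly6c1, Ptpn11, Lyz2 and Xist, up to 4 genes of a list with the lowest p in combination versus vehicle, and the nearest profiles; some of these genes are not reported here. Alternatives were DESeq2 size factors, no TMM, other count filters, DESeq2 1.42.0, limma-voom (limma 3.58.1), only the groups compared, a term for Xist, and libraries left out.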

Additional observations from a re-analysis of the deposited data

How the results depend on the processing

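The log2 changes of the 7 genes in the 7 contrasts were recomputed under 23 other settings, which gave 1064 values: 1008 kept their direction where called and their side of the threshold, 8 lost the call, 48 gained one, and 0 reversed. The number of the 7 genes called moved by over 1.5 times as follows, and the cause was not tested except where stated. Without the low-count filter it was 4 with 5-azacitidine versus vehicle (0 in the report), 1 with PD-901 versus vehicle (0), 2 with combination versus PD-901 (0), 1 with combination versus 5-azacitidine (0), 1 with 5-azacitidine versus PD-901 (0) and 2 in the interaction (0). In that order, 1.01%, 0.061%, 3.64%, 2.04% and 0.313% of all genes were then called lower, and 1.16% in the interaction in either direction. DESeq2 called 4 with 5-azacitidine versus vehicle (1.84% of all genes lower), 3 with combination versus PD-901 (8.31%) and 1 in the interaction (1.65% in either direction). With only the groups compared, 1 was called with 5-azacitidine versus vehicle (0.0194% of all genes lower) and 2 with combination versus PD-901 (6.29%). For combination versus PD-901 a stricter filter gave 1 (7.64% of all genes lower) and limma-voom 2 (5.65%). The Xist term gave 0 with combination versus vehicle (4 in the report), where 0% of all genes were called. It gave 0 in the joint test (4), where 0.0343% of all genes were called. Without the 4 libraries lowest in Lyz2, 1 combination and 1 vehicle mouse remain. Counts of called genes are therefore not given for that setting, although its values are among the 1064. Smaller moves with combination versus vehicle were 5 under the stricter filter (12.1% of all genes lower), DESeq2 (11.2%) and limma-voom (8.15%). In the joint test they were 3 without TMM (7.98% of all genes) and 5 with DESeq2 (17.3%). When each mouse was left out, the counts ran from 2 to 6 with combination versus vehicle, 0 to 4 with 5-azacitidine versus vehicle, 0 to 2 with combination versus PD-901 and 0 to 5 in the joint test.

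For all genes, combination versus vehicle gave 1010 higher and 1393 lower, and 1425 higher and 1175 lower without TMM, where the median change of all genes was 0.09 and that of the 7 genes -0.86. Libraries with Xist above, or below, 100 CPM were also fitted alone, settings added after seeing the data. Each fit has a group of 1 mouse, so only the median changes of the 7 genes are given. Above 100 CPM they were -0.50 for PD-901 and -0.48 for 5-azacitidine versus vehicle, and 0.25 for 5-azacitidine versus PD-901. Below it they were -0.34 for combination versus PD-901, 0.18 for combination versus 5-azacitidine and -0.61 for 5-azacitidine versus PD-901. No paired analysis was possible because the labels give the mice no shared numbers. With 3 mice a group the intervals are wide, and a missed threshold does not show that a gene was level.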
